A study of Homo sapiens with 34 samples.

Results

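The m6Am peaks listed as differing between heat-shocked and untreated HEK293T cells, a human embryonic kidney cell line, lay in 73 distinct genomic spans. These are all rows of the deposited heat shock m6Am peak list, with a span that occurred more than once counted a single time. The list holds 74 rows and 73 gene names, and its spans are 73 of the 2050 distinct spans in the 3 deposited m6Am lists of the series. The other lists hold 1652 spans from HEK293T cells mapped without stress and 385 spans from cells under hypoxia. Of the heat shock spans, 38 had a ratio of heat shock to untreated above 1 and are called raised, and 34 had a ratio below 1 and are called lowered. The remaining span, in TMEM107, was listed once in each direction.

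The series comprises 34 libraries made by m6Am-seq and related assays, of which 7 came from heat-shocked cells and 7 from untreated cells. Heat-shocked HEK293T cells were held at 43 °C for 2 h and then returned for 6 h of recovery, whereas untreated cells stayed in culture at 37 °C. Both groups are the wild-type line, with no transgene or deletion named in the labels. Each condition had 1 input library of fragmented RNA, 2 libraries of RNA pulled down with an antibody against the m7G cap, and 2 m6A antibody libraries each with and without prior treatment by the demethylase FTO. Nothing in the labels says whether the paired libraries came from separate cultures. The study itself reports at least 2 biological replicates for every experiment. The lists give 1 pooled span per row, with neither read counts nor values per library, so depth behind each ratio is unknown and no ratio has an error or a test. They hold no expression values either, so the identity of the cell line could not be checked against marker genes. For the same reason, a change in mRNA amount behind a ratio cannot be told apart from a change in methylation.

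m6Am is adenosine that carries a methyl group on the ribose and a further one on the N6 position of the base, and it stands next to the m7G cap as the first transcribed nucleotide of an mRNA. The enzyme PCIF1 adds the N6 methyl group. FTO can remove it, and can also act on m6A, so the assay used FTO under reaction conditions chosen to spare m6A, and a signal that fell after this treatment was taken as m6Am. Heat shock unfolds proteins and activates the transcription factor HSF1, which induces chaperones such as HSPB1 and HSPD1, while the translation of many other mRNAs is held back.

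The start sites that carry the extremes of the list are shown first, for the 2 protein folding genes, for the 4 other raised genes and for the 4 lowered genes with the most extreme ratios among spans of at most 1000 bp that hold a start site of the named gene. Each sequence runs 5′ to 3′ on the strand of the gene, from 20 bases before the annotated start to the tenth transcribed base, in GRCh37 coordinates. The capital marks the annotated first transcribed base that lies nearest the 5′ end of the span. It is an annotated position, not a measured m6Am site.
HSPB1, chr7:75931970-75931999, forward strand: gcagccgagcccagcgccccGcacttttct
HSPD1, chr2:198364989-198365018, reverse strand: cccagggagggagggcggtcGccccgacgc
BMPR2, chr2:203241030-203241059, forward strand: cgcagactggcagctgcggcGactcccccc
SNX17, chr2:27593343-27593372, forward strand: cgccccgcactacgggttgcAatgagggcc
AGAP3, chr7:150783542-150783571, forward strand: cgcgcgctcccggtcccgttGttgttgccg
ABT1, chr6:26597161-26597190, forward strand: gtcagttggcaaggcactttAcggccgtcg
SLC25A5, chrX:118602365-118602394, forward strand: ctccggctccccctatataaAtcggccatt
KLF3, chr4:38665798-38665827, forward strand: ccgccagccccgggaggctcGcagagcgag
LOC403323, chr9:66553902-66553931, reverse strand: ggccagggctgcacatgctcAgtgaggtcg
ZBTB11, chr3:101395970-101395999, reverse strand: ggtggtgcagcagccattttGtcagtcgcc
The annotated first base was A in SNX17, ABT1, SLC25A5 and LOC403323 and G in the other 6 genes. In SLC25A5 the start follows a run of alternating T and A bases, and the promoter of this gene was among the few that held TATAAA. Among all 64 spans with a start site of their own gene, the annotated first base was A in 26, which is 40.6% (95% Wilson interval 29.5 to 52.9). It was A in 16 of 37 raised spans (43.2%) and in 10 of 27 lowered spans (37%). The same measure was 45.2% over 1476 HEK293T spans and 36.1% over 78582 annotated start sites of protein-coding transcripts. The context BCA, where B is any base but A, surrounded 14 of the 64 starts, 21.9% (13.5 to 33.4), against 28.3% of HEK293T spans and 18.7% of all coding starts. These shares are descriptions, with no test between the lists. Annotated starts can lie some bases away from the start in use. The paper places most of its m6Am sites downstream of RefSeq start sites, so these shares may describe bases other than the m6Am site.

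Most ratios lay close to the 2-fold limit of the study's methods. The deposited table heads these values log2 fold change. None lies below 0, and rows that the study sorts as lowered lie between 0 and 1, so the values are treated here as linear, heat shock over untreated. Raised spans had a median ratio of 2.20 and ranged from 1.53 to 4.38, with 32 of 38 (84.2%) between 2 and 2.5. Lowered spans had a median of 0.411 and ranged from 0.0232 to 0.483, with 26 of 34 (76.5%) between 0.35 and 0.5. Only 3 rows were under 2-fold: KHSRP at 1.53, SHOX2 at 1.55 and the lower of the TMEM107 rows at 0.649. Because the ratios placed spans on the list, these values are given without a test.

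**Figure D1:**
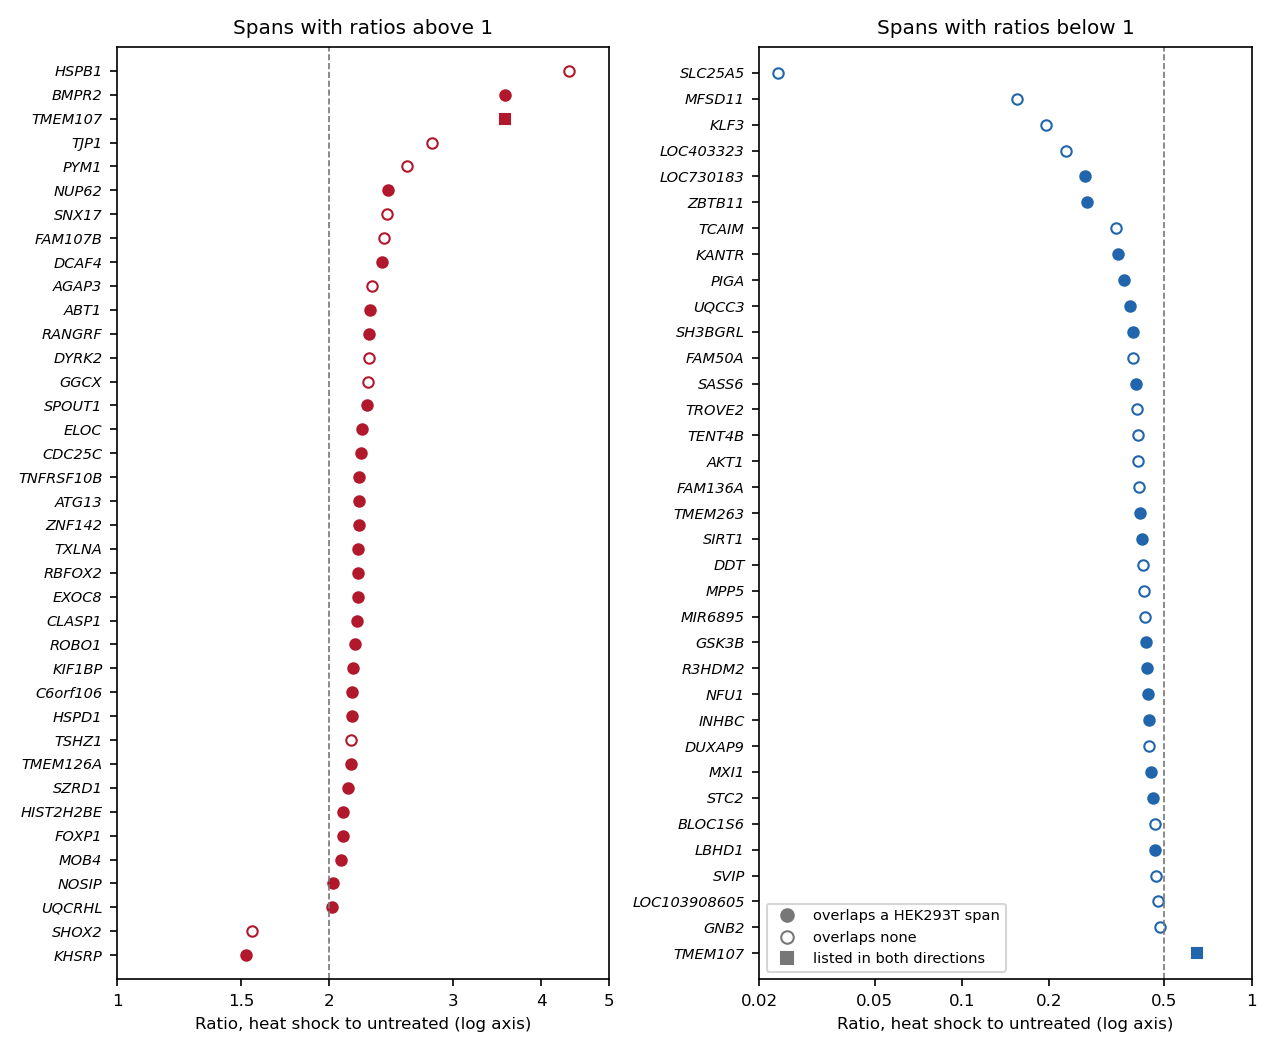
Deposited ratio of heat shock to untreated (log axis) for the heat shock m6Am spans reported by name, 1 point per span, with spans above 1 on the left and below 1 on the right; filled points overlap a span of the HEK293T list, open points do not, squares mark TMEM107, and dashed lines mark 2-fold. HSPB1 at 4.38 stands at the top of the raised spans and SLC25A5 at 0.0232 far below the other lowered spans.

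Protein folding genes were listed as raised. HSPB1, which encodes the small heat shock protein HSP27, had the highest ratio of the list, 4.38, at chr7:75931875-75932078. This span of 204 bp covered the first annotated start of HSPB1, 115 bp inside its 5′ end, reached into the coding sequence and overlapped no HEK293T or hypoxia span. HSPD1, the mitochondrial chaperonin HSP60, had a ratio of 2.15 at chr2:198364810-198367780 and overlapped a HEK293T span of 934 bp. Of 34 heat shock proteins and cochaperones in a list assembled for this report, these 2 were listed as raised and 0 as lowered, while the HEK293T list held 5, namely HSPD1, DNAJB1, DNAJB6, BAG3 and PTGES3.

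The span under HSPD1 also covered HSPE1, the cochaperonin HSP10, which shares a bidirectional promoter with HSPD1. The span began 54 bp before the first annotated HSPE1 start and ran along HSPE1, of which it covered 1430 exonic bases, whereas it covered 189 exonic bases of HSPD1. Its start lay in an HSPD1 exon and its end in an HSPE1 exon. MOB4, a subunit of the striatin phosphatase complex, was listed at 2.08 over chr2:198364811-198388368, a span that began 1 bp from the HSPD1 span and shared 2970 bp with it. The first MOB4 start within it lay 15484 bp from its 5′ end, and an annotated readthrough transcript, HSPE1-MOB4, joins these genes. Without strand in the lists, HSPD1, HSPE1 and MOB4 cannot be told apart as sources of these 2 ratios.

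**Figure D2:**
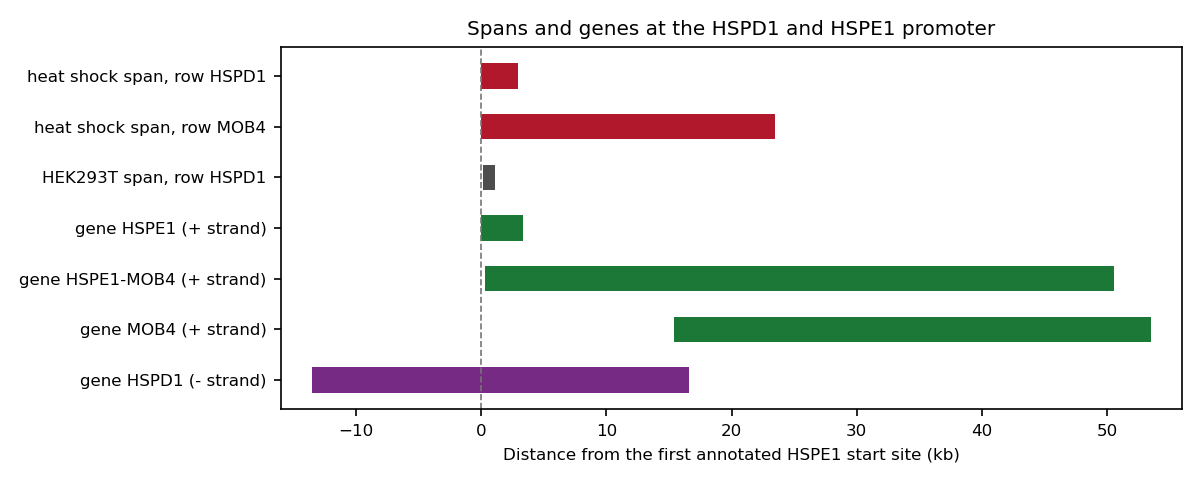
Map of the heat shock spans listed under HSPD1 and MOB4, the HEK293T span listed under HSPD1 and the 4 annotated genes there, in kb from the first annotated HSPE1 start site (dashed line), each bar running from its first to its last base. Both heat shock spans begin just before the HSPE1 start and within HSPD1, which is read in the opposite direction.

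Mitochondrial genes were listed in both directions, 2 raised and 5 lowered. The lowest ratio of the list, 0.0232, belonged to SLC25A5, the ADP/ATP carrier ANT2 of the inner membrane, at chrX:118602094-118603083. This span of 990 bp held 205 exonic bases of the gene and began 291 bp before the nearest annotated start within it. It also held a start of SLC25A5-AS1, a noncoding gene on the opposite strand, 22 bp from the span end that is 5′ on that strand. Without strand in the lists, these 2 genes cannot be told apart as sources of the ratio. SLC25A5 belongs to a family with close paralogs and many processed copies, so reads could have been shared among them. TCAIM, a mitochondrial protein, had a ratio of 0.339 over 180 bp. UQCC3, an assembly factor of respiratory complex III, had 0.382, FAM136A had 0.408 and the iron-sulfur cluster carrier NFU1 had 0.437. The raised pair was TMEM126A, an inner membrane protein, at 2.15 and UQCRHL, a copy of the complex III hinge protein, at 2.02. UQCRHL is an intronless copy of UQCRH, so reads of the pair are hard to tell apart. Of 16 complex III subunits and assembly factors, 1 was therefore listed as raised, 1 as lowered, and 4 appeared in the HEK293T list.

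Receptors, kinases and other signalling proteins made up the largest group, with 8 raised and 5 lowered spans. BMPR2, the type II receptor for bone morphogenetic proteins, had 3.55 over chr2:203241050-203241499, a span of 450 bp that began exactly on an annotated start. The death receptor TNFRSF10B had 2.21 and the Slit receptor ROBO1 had 2.18, and both spans had the same boundaries as a HEK293T span. AGAP3, an Arf GTPase-activating protein, had 2.30, the kinase DYRK2 had 2.28 and the nitric oxide synthase interacting protein NOSIP had 2.02. CDC25C, the phosphatase that activates CDK1 at entry into mitosis, had 2.22 over 3354 bp. This span began exactly on a start of the divergent gene FAM53C and held 481 exonic bases of FAM53C against 341 of CDC25C.

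The lowered signalling spans included AKT1 and GSK3B, kinases of the insulin pathway. AKT1 had a ratio of 0.406 over 210 bp that began on an annotated start, and it overlapped no HEK293T span. GSK3B, which AKT phosphorylates, had 0.432 and shared its end with a HEK293T span. The deacetylase SIRT1 had 0.418 and exactly the boundaries of a HEK293T span, with its nearest annotated start just outside it. Of 19 genes in a list of PI3K, AKT and GSK3 signalling that was assembled with the results known and counts SIRT1 as a member, these 3 were listed as lowered and 0 as raised, beside 34 lowered and 38 raised spans in the whole heat shock list. The HEK293T list held 2 of the 19, GSK3B and SIRT1. The secreted glycoprotein STC2 had 0.458, the G protein subunit GNB2 had 0.483 and INHBC, a beta subunit of the inhibin family, had 0.442. The INHBC span lay wholly outside the annotated INHBC gene and inside R3HDM2. R3HDM2 had its own row at 0.434, with 35142 bp shared and ends 1 bp apart, so these 2 rows nearly coincide at the end that is 5′ for R3HDM2. Their other ends lay 85312 bp apart.

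Transcription factor and chromatin genes gave 7 raised and 4 lowered spans. Among the raised were ABT1, an activator of basal transcription, at 2.28, ZNF142 at 2.20, TSHZ1 at 2.15, the histone H2B gene HIST2H2BE at 2.10, the forkhead factor FOXP1 at 2.09 and the homeobox gene SHOX2 at 1.55. The HIST2H2BE span was the shortest of the list at 149 bp and began on the annotated start. Histone H2B genes are similar in sequence, which leaves the assignment of its reads uncertain. Lowered were the Krüppel-like repressor KLF3 at 0.196, ZBTB11 at 0.269, SIRT1 at 0.418 and the MYC antagonist MXI1 at 0.451. KLF3 was absent from the HEK293T list, whereas MXI1 had a span with the same boundaries there. The KLF3 span also held a start of the noncoding gene KLF3-AS1, on the opposite strand. By gene name, MXI1 alone of 20 stress and immediate early transcription factors was listed under heat shock. The HEK293T list held 6, namely ATF3, ATF4, ATF5, EGR1, FOS and MXI1. The raised span listed under NUP62, at 2.43, overlapped the HEK293T span of ATF5. The paper shows increased m6Am in EGR1 after heat shock, and the rows used here are fewer than the heat shock peaks it counts. Absence of a name from these rows therefore does not show that the gene was unchanged.

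RNA-binding proteins were split, 4 raised and 4 lowered. PYM1, which takes exon junction complexes off mRNA during translation, had 2.58 over a span of 23713 bp. SPOUT1 had 2.26, the splicing regulator RBFOX2 had 2.20 and the AU-rich element binding protein KHSRP had 1.53. Lowered were FAM50A at 0.390, TROVE2 (the Ro60 protein) at 0.403, the noncanonical poly(A) polymerase TENT4B at 0.405 and R3HDM2 at 0.434. The TROVE2 span lay across the starts of TROVE2 and the divergent gene UCHL5. Each was measured from the span end that is 5′ on its own strand. The UCHL5 start lay 27 bp from one end and the TROVE2 start 167 bp from the other.

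Both rows listed under nuclear transport genes were raised. NUP62, a protein of the central channel of the nuclear pore, had 2.43, and RANGRF, a factor that releases nucleotide from Ran, had 2.28. Of 28 nuclear pore and transport genes these were the 2 listed, and the HEK293T list held 3, namely RANBP1, RANGRF and KPNB1. The NUP62 span at chr19:50431959-50434035 began exactly on an annotated start of ATF5, a stress transcription factor on the opposite strand, and held 927 exonic bases of ATF5 against 1063 of NUP62. It also held a start of IL4I1, on the strand of NUP62. The HEK293T span that it overlapped was listed under ATF5.

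Vesicle and autophagy genes gave 4 raised and 2 lowered spans. SNX17, a sorting nexin of endosomal recycling, had 2.42 over 268 bp that began on its annotated start. ATG13, a subunit of the complex that initiates autophagy, had 2.21, the syntaxin-binding protein TXLNA had 2.20 and the exocyst subunit EXOC8 had 2.20. BLOC1S6, a subunit of a lysosomal trafficking complex, had 0.464 and SVIP, which binds the segregase VCP, had 0.469. Of 17 autophagy initiation genes, ATG13 was the 1 listed as raised, 0 were lowered, and the HEK293T list held 4.

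Cytoskeleton and junction genes gave 3 raised and 2 lowered spans besides TMEM107. TJP1, the tight junction scaffold ZO-1, had 2.80 over the longest span of the list, 168042 bp, whose ends enclosed 994 exonic bases. CLASP1, which tracks growing microtubule ends, had 2.19 and the kinesin-binding protein KIF1BP had 2.16. The centriole cartwheel protein SASS6 had 0.400 and the polarity scaffold MPP5 had 0.424. TMEM107, a protein of the ciliary transition zone, had 3.55 in one row and 0.649 in the other over the same 361 bp at chr17:8076887-8077247. That span held no annotated start of TMEM107 but held the start of SNORD118, the U8 small nucleolar RNA gene, on the same strand.

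The remaining coding genes were few. The ubiquitin ligase components DCAF4, at 2.38, and elongin C (ELOC), at 2.23, were raised. Among membrane and metabolic genes the vitamin K-dependent carboxylase GGCX was raised at 2.27, while MFSD11, a predicted transporter, was lowered at 0.154, PIGA of GPI anchor synthesis at 0.363, TMEM263 at 0.413 and the tautomerase DDT, which has a near copy in DDTL, at 0.420. The MFSD11 span of 1489 bp also held a start of the divergent gene SRSF2, which encodes a splicing factor. FAM107B was raised at 2.40, C6orf106 at 2.16 and SZRD1 at 2.13, whereas SH3BGRL was lowered at 0.388 and LBHD1 at 0.464. The span under SH3BGRL ended before that gene began and held 1399 exonic bases of HMGN5, which is read from the opposite strand.

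All 6 noncoding or pseudogene names were lowered. LOC403323 had 0.228, LOC730183 had 0.266, KANTR had 0.346, MIR6895 had 0.428, DUXAP9 had 0.442 and LOC103908605 had 0.475. The annotation used here had no entry under LOC730183 or MIR6895, and it called KANTR coding, which left 3 of 34 lowered spans (8.82%, 3.05 to 23.0) and 0 of 38 raised spans (0%, up to 9.18%) on genes it marks as noncoding. In the HEK293T list that share was 7.20% (119 of 1652). The LOC730183 span held the start of the coding gene SRCAP, 69 bp from one end. A noncoding gene on the opposite strand started 4 bp from the other end. The LOC403323 span also held a start of the noncoding gene FAM88B on the opposite strand, 8 bp from the end that is 5′ on that strand. The DUXAP9 span lay within its near-identical pseudogene copy DUXAP10. Chromosome X held 6 of the 34 lowered spans and 0 of the 38 raised ones, beside 82 of 1652 HEK293T spans (4.96%) and 14 of 385 hypoxia spans. The MIR6895 span, at chrX:53174164-53174883, lay close to the HEK293T span of KANTR, which ended at 53171452. KANTR and MIR6895 may therefore not count as separate.

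**Figure D3:**
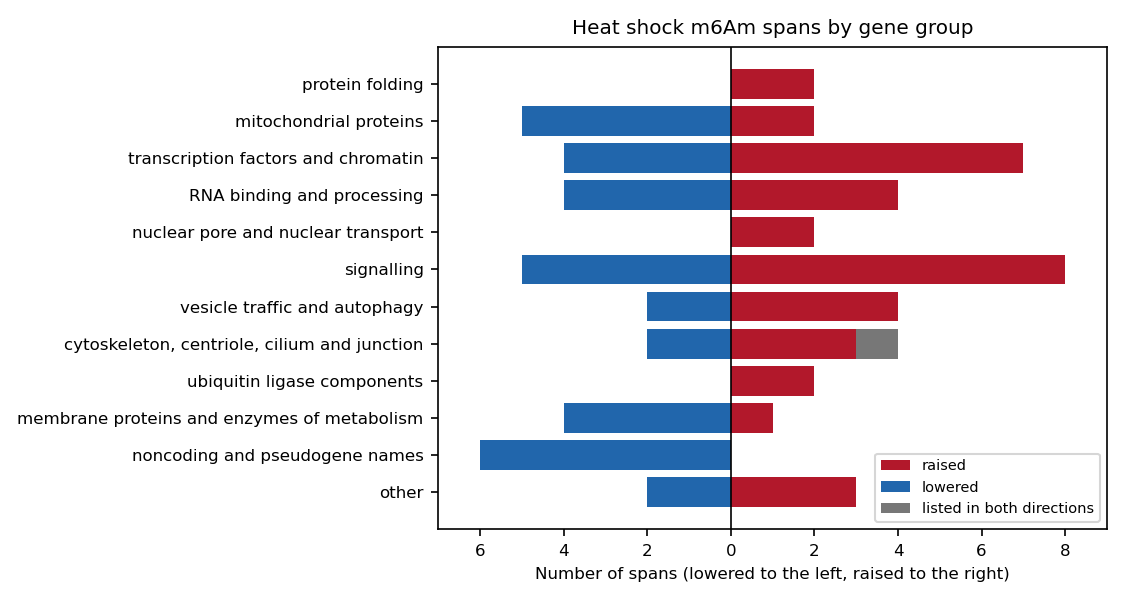
Number of heat shock m6Am spans in each gene group, with raised spans to the right of 0, lowered spans to the left and the TMEM107 span in grey. Signalling is the largest group with 8 raised and 5 lowered spans, and the 6 noncoding and pseudogene names all lie on the lowered side.

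The genes that write, erase or read the marks themselves did not appear in the heat shock list. Of 21 m6Am and m6A enzymes and readers, 0 were listed as raised or lowered, and the HEK293T list held only YTHDF3. The number of peaks that entered the comparison is not in the lists, so no share of tested peaks can be given for any gene list.

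Heat shock spans were then compared with the HEK293T list, which came from other libraries and did not choose them. By an overlap of at least 1 bp, 44 of 73 spans, 60.3% (95% Wilson interval 48.8 to 70.7), were present there. The share was 71.1% (55.2 to 83) for raised spans, 27 of 38, and 47.1% (31.5 to 63.3) for lowered spans, 16 of 34. The difference of 24 percentage points did not pass the threshold of 0.05 in a two-sided Fisher's exact test over spans (odds ratio 2.76, p = 0.0544, adjusted p = 0.109 over the 2 raised against lowered tests). Under a stricter rule, with at least 50% of each span shared, the difference was 28.5 points with an unadjusted p of 0.0188 by the same test. Under the other rules tried it did not pass 0.05. Raised and lowered peaks may have been called through different libraries, so presence in an unstressed list may not be independent of direction. The test cannot separate the 2. The rows used here are fewer than the heat shock peaks that the study counts, in both directions but more so for raised than for lowered peaks. Peaks outside these rows were not analysed here. Spans are items on a list, not replicates of heat shock, and the 3 overlapping pairs among them share reads.

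The 11 raised spans absent from the HEK293T list included those of FAM107B, PYM1, DYRK2, TJP1, TSHZ1, SNX17, GGCX, SHOX2, AGAP3 and HSPB1. The 18 lowered spans absent from it were those of TROVE2, SVIP, AKT1, DUXAP9, MPP5, BLOC1S6, TENT4B, MFSD11, FAM136A, DDT, TCAIM, KLF3, GNB2, LOC103908605, LOC403323, SLC25A5, FAM50A and MIR6895. None of the 29 names occurred elsewhere in the HEK293T list. The 3 lowest ratios, SLC25A5, MFSD11 and KLF3, and the highest, HSPB1, were all in this set. Median ratios were nonetheless close, at 2.20 for raised spans in the HEK293T list and 2.30 for those not in it, and at 0.416 and 0.407 for the lowered spans. Read from the other side, 42 of 1652 HEK293T spans (2.54%) overlapped a heat shock span, 26 of them (1.57%) a raised one and 15 (0.908%) a lowered one.

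Shared spans often had the same edges in both lists. Of the 43 heat shock spans that overlapped exactly 1 HEK293T span, 19 had the same start, 20 the same end and 27 had both ends within 100 bp. The boundaries were identical for 9 spans, namely KHSRP, CLASP1, ROBO1, TNFRSF10B, SPOUT1, SASS6, MXI1, SIRT1 and SH3BGRL. The gene name differed for 4 of the 44 present spans. The NUP62 span was listed under ATF5 in the HEK293T list, MOB4 under HSPD1, LBHD1 under UQCC3 and R3HDM2 under INHBC.

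**Figure D4:**
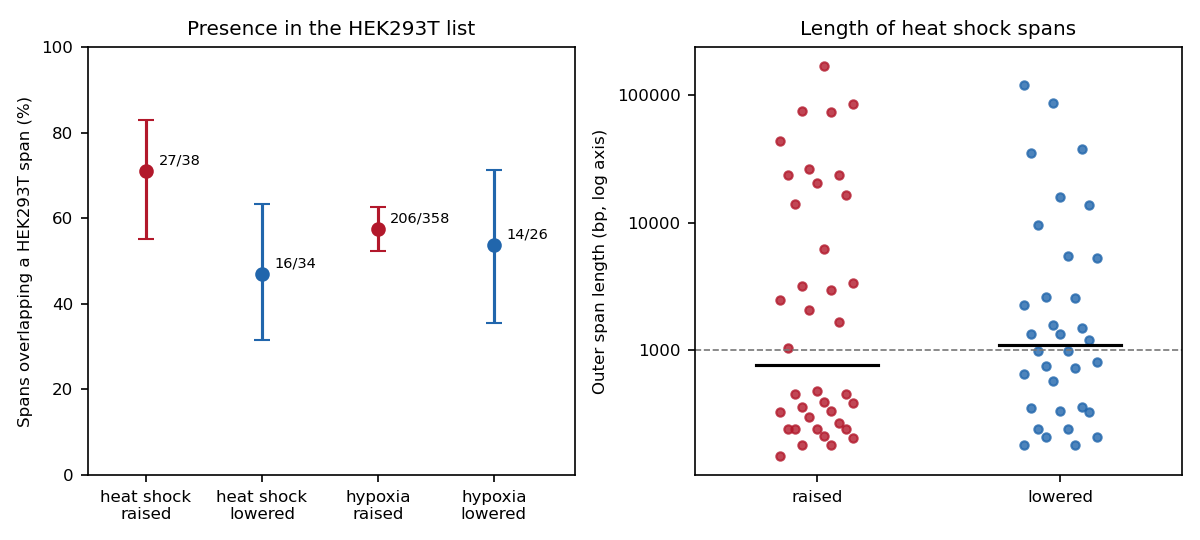
Left, percentage of spans that overlap a HEK293T span by at least 1 bp, for raised and lowered spans of the heat shock and hypoxia lists, with 95% Wilson intervals and counts; the heat shock and hypoxia lists share their untreated libraries. Right, outer length of each raised and lowered heat shock span on a log axis, with medians as bars (763 and 1092 bp) and a dashed line at 1000 bp; raised spans range from 149 to 168042 bp and lowered spans from 180 to 120455 bp.

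Span lengths covered 3 orders of magnitude. The median outer length was 990 bp, with a range of 149 to 168042 bp, against 1228.5 bp in the HEK293T list. Raised spans had a median of 763 bp and lowered spans one of 1092 bp. Spans over 1000 bp made up 19 of 38 raised and 17 of 34 lowered spans (two-sided Fisher's exact test, p = 1, adjusted p = 1). The span crossed an intron of its gene in 32 of 73 rows (43.8%), against 53.1% of HEK293T spans. The exonic part had a median of 360 bp, 333 bp for raised and 537 bp for lowered spans, and of 358 bp in the HEK293T list. Coding sequence was touched by 45 spans (61.6%), against 59.5%.

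Start sites lay in most of the spans. Of 73 spans, 64 (87.7%, 78.2 to 93.4) held an annotated start of the named gene, 37 of 38 raised and 27 of 34 lowered, against 89.3% in the HEK293T list. The 9 without one were EXOC8, TMEM107, SIRT1, INHBC, DUXAP9, LOC730183, FAM136A, MIR6895 and SH3BGRL. The 5′ end of the span lay within 100 bp of such a start in 41 of the 64 (64.1%, 51.8 to 74.7), while the share was 79.9% (77.8 to 81.8) in the HEK293T list and 81.4% in the hypoxia list. The difference between the lists was not tested. Counting only starts inside the span, the median distance was 46.5 bp, against 20 bp in the HEK293T list, and 17 spans began exactly on an annotated start.

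Another coding gene started closer to an end of the span in some rows. Each start was measured from the span end that is 5′ on the strand of its own gene. Starts on opposite strands are thus measured from opposite ends. A span with no start of its own gene was counted too. By this measure a coding gene other than the named one started nearer in 10 of 73 spans (13.7%, 7.61 to 23.4), against 7.93% (6.72 to 9.33) of HEK293T spans. Besides the NUP62, HSPD1, MOB4, CDC25C, TROVE2, INHBC, LOC730183 and SH3BGRL spans described above, these were UQCC3 and LBHD1, which are read in opposite directions and shared 116 bp. The LBHD1 span held 614 exonic bases of LBHD1 and 661 of UQCC3. Coding starts on both strands occurred in 9 spans (12.3%, 6.62 to 21.8), against 5.69% (4.67 to 6.91) of HEK293T spans. The lists carry no strand, so for these spans the gene behind the ratio cannot be told from the list. Starts of noncoding genes, such as SLC25A5-AS1 and KLF3-AS1, were not counted in these shares, and the same limit holds for spans with such starts.

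Promoters under the listed gene names had a higher median G and C content than all promoters. Promoter sequences from RefSeq (GRCh38.p14, 250 bases before to 50 after the start) were found for 60 of the 73 names. Those without one included UQCRHL, DYRK2, TSHZ1, SNX17, RBFOX2, TNFRSF10B, ELOC, UQCC3, DUXAP9, KLF3, FAM50A and MIR6895. Each promoter follows the gene name and not the span. Those of EXOC8, TMEM107, SIRT1, FAM136A, INHBC, SH3BGRL and LOC730183 were thus counted, although their spans held no annotated start of these genes. For the names found, the median G and C content was 62.7%, against 58.3% over 27305 promoters. The median number of CpG dinucleotides was 24, against 14. Promoter values were not computed for the HEK293T list, so they cannot set the heat shock genes apart from other m6Am genes. Motifs were searched on both strands as exact letters. GGGCGG, the core of the Sp1 site, was present in 39 of the 60 (65.0%) and in 44.6% of all promoters, and CCAAT in 25 (41.7%) against 35.7%. TATAAA was present in 5 (8.33%), those of HIST2H2BE, DDT, TCAIM, LOC103908605 and SLC25A5, against 12% of all promoters.

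Pairs of inverted heat shock element units, the letters that HSF1 binds, were found in few of these promoters. GAANNTTC and TTCNNGAA read the same on either strand, and they can overlap one another. GAANNTTC, in which N is any base, was present in the promoters of EXOC8, KIF1BP, TMEM126A, NOSIP, HSPB1 and SASS6, in 6 of 60 against 6.87% of all promoters. TTCNNGAA was present in those of EXOC8 and LOC403323 (3.33% against 7.84%). A longer form with 3 alternating GAA and TTC units, each 2 bases from the next and chosen after the values were seen, was present in 0 of the 60 and in 0.487% of all promoters. CCGGAAG, an ETS motif, occurred in 9 (15.0%) against 10.7%, and TGCGCA, part of the NRF1 site, in 9 (15.0%) against 8.42%. TGACGTCA, the cAMP response element, occurred in that of ZBTB11, with 1.98% over all promoters. These matches describe letters in a window, and the shares were not tested.

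The hypoxia list, from cells held at 1% oxygen for 24 h, was made against the same untreated libraries, so the values below are set side by side only. Of the spans raised under heat shock, HIST2H2BE had a hypoxia ratio of 2.15, KIF1BP 2.41, TSHZ1 2.37, KHSRP 2.24, CLASP1 2.04, ROBO1 2.25 and C6orf106 2.19. KHSRP, under 2-fold after heat shock, was thus above it under hypoxia. Among lowered spans, SLC25A5 had 0.154, TROVE2 0.220, DDT 0.574, a span listed under LBHD1 that overlapped both the UQCC3 and LBHD1 rows 0.267, and one listed under INHBC that overlapped both the R3HDM2 and INHBC rows 0.126. SZRD1 was raised under heat shock but had 0.448 under hypoxia, whereas TMEM263 and STC2 were lowered under heat shock but had 2.04 and 2.66. MFSD11 was listed under hypoxia at 1.80 and at 0.302, and TMEM107 at 0.902.

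**Figure D5:**
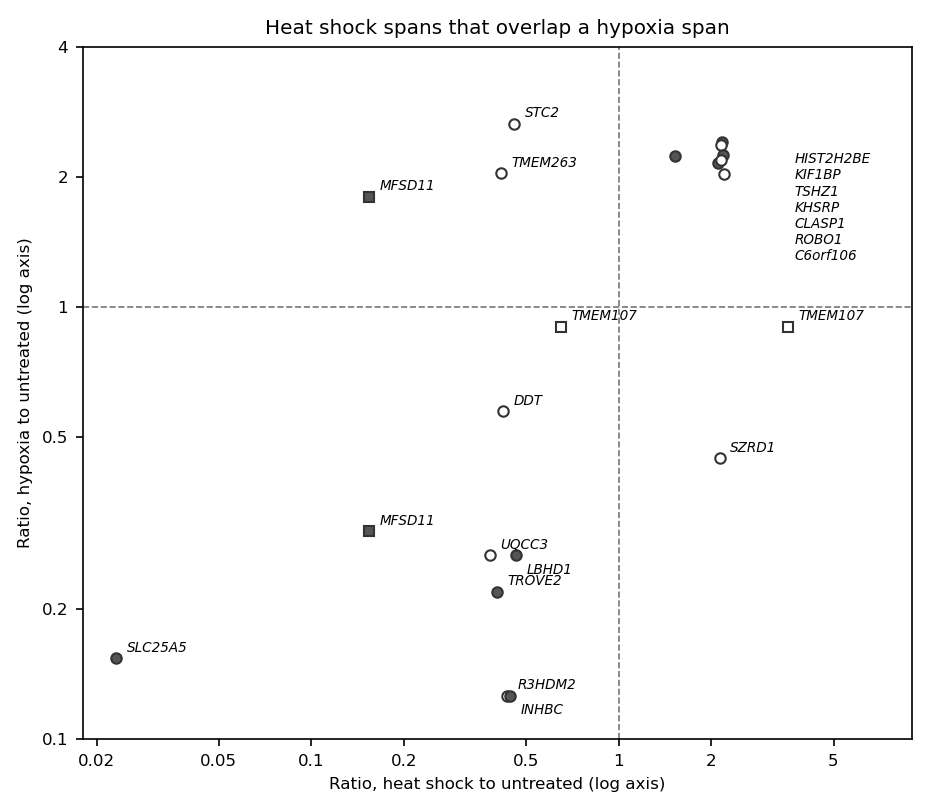
Deposited ratios to untreated under heat shock (horizontal) and hypoxia (vertical), both on log axes, for the named heat shock spans that overlap a hypoxia span by at least 1 bp; filled points have identical boundaries, squares mark spans listed in more than 1 row, and dashed lines mark a ratio of 1. SLC25A5 has the lowest heat shock ratio, 0.0232, and 0.154 under hypoxia; both axes share the same untreated libraries.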

How the data were processed

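m6Am-seq peaks of heat-shocked, untreated and other HEK293T libraries were taken as deposited. The authors' methods trimmed reads (Trim Galore 0.6.6, per the submitters' processing notes), aligned them to hg19 with HISAT2, called peaks with exomePeak and MACS2, kept those lowered by FTO as m6Am, and compared stress with untreated cells by exomePeak and a count-based test. The deposited ratio is the authors' own comparison, headed log2 fold change; it is printed as a linear ratio per row and untested. How replicates were combined is not given in the sources used here.

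Spans were read as 1-based GRCh37: 10 of 73 starts fell on an exon start, and 0 and 2 did so when moved 1 bp down or up. Names were matched to GENCODE release 44 (64 directly, 7 through older symbols, 2 not). Overlap, start site and promoter shares were computed in Python 3.11.15 with SciPy 1.17.1, with 95% Wilson intervals, which cover counting error only, and two-sided Fisher's exact tests with Benjamini-Hochberg adjustment, after a check on simulated data. Figures used Matplotlib 3.10.9. Groups came from the sample titles. Rows were described by gene group, with fuller values for the 5 highest and 5 lowest ratios and for overlapping rows. 1 row is not reported here by name, though it is in the counts. Members, gene groups and lists were chosen with earlier results of these data known, and HSPB1 was placed in its group after the list was read. Alternatives were overlap rule, span length, ratio size, transcript set, start distance and promoter window.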

Additional observations from a re-analysis of the deposited data

How the results depend on the processing

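No paired analysis was possible because the lists give 1 pooled row per span and no column per library, and leaving out a replicate was not possible for the same reason. The share of spans present in the HEK293T list, 60.3% by a 1 bp overlap, was 45.2% when at least 50% of both spans had to be shared, 12.3% with identical boundaries and 37.5% (3 of 8) for ratios of at least 3 or at most 1/3. The last limit left 2 raised and 6 lowered spans. The difference between raised and lowered spans in that share passed 0.05 under the 50% rule alone (28.5 points, p = 0.0188 by Fisher's exact test). By the same exact test it was 1.39 points (p = 1) with identical boundaries, 16.1 points (p = 0.503) for spans of at most 1000 bp, 25.2 points (p = 0.0503) at 2-fold and 16.7 points (p = 1) at 3-fold; the cause of this spread was not tested. The difference in long spans, 0 points at 1000 bp, was by that exact test −20.6 points (p = 0.0948) at 500 bp and 9.44 points (p = 0.476) at 2000 bp. These p-values are two-sided and unadjusted. Start site and motif shares stayed inside the intervals of the values reported. Depth behind each ratio is unknown, no ratio carries an error, and strand is absent.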
